A study of Homo sapiens with 12 samples.

Results

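The 9 genes described here belong to the metzincin protease system and were followed in HOS, a human osteosarcoma cell line. They are the matrix metalloproteinases MMP1, MMP2 and MMP14, the tissue inhibitors of metalloproteinases TIMP1, TIMP2 and TIMP3, the disintegrin metalloproteinases ADAM17 and ADAM19, and ADAMTS1. They were chosen by name, through their Ensembl identifiers, and all 9 of 9 were found among the 25141 genes of the count table and among the 12542 genes kept by the filter on low counts. The 12 libraries fell into 4 groups of 3. Mock cells carried an empty vector and upCIN85 cells a plasmid encoding full-length CIN85, an adaptor protein of receptor endocytosis encoded by SH3KBP1; both were geneticin-resistant pools and not single clones. The siNeg cells received a non-targeting siRNA and the siCIN85 cells a mix of siRNAs against CIN85. Nothing in the labels says that the 3 libraries of a group were separate cultures, so P values measure only the spread between these libraries.

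Matrix metalloproteinases are zinc enzymes that cut collagens and other matrix proteins and are made as inactive precursors. MMP1 is an interstitial collagenase, MMP2 a gelatinase that cuts type IV and denatured collagen, and MMP14 a membrane-anchored collagenase that also activates the precursor of MMP2. ADAMs sit in the plasma membrane and release the outer domains of other membrane proteins, and ADAMTS enzymes are secreted and cut proteoglycans. TIMPs block the active site of these enzymes and differ in their preferences: TIMP2 also bridges MMP14 and the MMP2 precursor during its activation, and TIMP3 is bound to the matrix and inhibits ADAM17. In osteosarcoma these enzymes are studied for their part in invasion of bone and soft tissue.

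The shared chemistry of the proteases is visible in the genes themselves, so the coding stretch of the catalytic zinc site is shown for the 6 proteases, read from the GENCODE release 29 transcripts on GRCh38. Capitals mark the codons of the 3 histidines that hold the zinc and of the glutamate that acts in catalysis.
MMP1: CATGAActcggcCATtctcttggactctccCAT
MMP2: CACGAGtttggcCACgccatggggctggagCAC
MMP14: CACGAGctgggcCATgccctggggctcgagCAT
ADAM17: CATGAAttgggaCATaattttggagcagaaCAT
ADAM19: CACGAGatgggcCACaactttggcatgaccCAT
ADAMTS1: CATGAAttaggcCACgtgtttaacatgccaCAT
Of these 33 bases, MMP14 shared 23 with MMP1, ADAM17 shared 21, ADAM19 shared 20, ADAMTS1 shared 19 and MMP2 shared 18. The stretch of MMP1 (ENSG00000196611) lies in exon 5 at chr11:102795549-102795581 on the minus strand, that of MMP2 (ENSG00000087245) in exon 8 at chr16:55491827-55491859 on the plus strand and that of MMP14 (ENSG00000157227) in exon 5 at chr14:22843283-22843315 on the plus strand. The stretch of ADAM17 (ENSG00000151694) lies in exon 11 at chr2:9510078-9510110 and that of ADAM19 (ENSG00000135074) in exon 11 at chr5:157505734-157505766, both on the minus strand. In ADAMTS1 (ENSG00000154734) the stretch is split between exons 3 and 4, within chr21:26841143-26841867 on the minus strand.

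The inhibitors carry no such site. The first codons of the mature TIMPs are shown because this end of the protein enters the protease; capitals mark the codons of the 2 cysteines, the first of which binds the zinc of the enzyme.
TIMP1: TGCaccTGTgtcccaccccacccacag
TIMP2: TGCagcTGCtccccggtgcacccgcaa
TIMP3: TGCacaTGCtcgcccagccacccccag
These 27 bases lie in exon 2 of TIMP1 (ENSG00000102265) at chrX:47583485-47583511 on the plus strand, in exon 1 of TIMP2 (ENSG00000035862) at chr17:78924984-78925010 on the minus strand and in exon 1 of TIMP3 (ENSG00000100234) at chr22:32802071-32802097 on the plus strand.

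The 12 libraries held between 3540641 and 6049458 counts, with lower totals in all siNeg and siCIN85 libraries than in all Mock and upCIN85 libraries. SH3KBP1, the targeted gene, had 342, 357 and 317 counts in siNeg and 16, 31 and 37 in siCIN85, a log2FC of -3.51 (SE 0.21, edgeR adjusted P = 5.09e-08). In upCIN85 it had 406, 551 and 487 counts against 407, 488 and 416 in Mock (log2FC 0.07, SE 0.16, adjusted P = 0.887). Whether the plasmid transcript is counted in these 3′ end libraries was not tested. Of 9 osteoblast and mesenchymal markers all were tested, and the defining ones, RUNX2, SPARC and COL1A1, were present in every group, with RUNX2 lowest at 12.8 CPM in siCIN85; ALPL was at 0.253 to 3.26 CPM. Among them ALPL (log2FC 1.76, SE 0.39, edgeR adjusted P = 0.0340) and COL1A2 (1.35, SE 0.31, adjusted P = 0.0439) were higher in upCIN85 than in Mock. ALPL was at 2.80 to 3.76 CPM in upCIN85 and at 1.06 CPM or less in every other library. It thus passed the filter only through the group where it was high, so its call is no independent support. COL1A1 (1.27, SE 0.28, adjusted P = 0.0381) and COL1A2 (2.61, SE 0.48, adjusted P = 0.0151) differed between the effects of plasmid and siRNA. How these marker calls hold without single libraries was not tested. The leukocyte markers were below the filter, with PTPRC, LYZ and CD3E at 0 or 1 count per group and CD14 at 1.02 to 1.68 CPM. Of 3 endothelial markers CDH5 was tested (1.84 to 3.23 CPM), and PECAM1 had 2 to 12 counts per group. Of 3 epithelial markers EPCAM (28.6 to 52.1 CPM) and CDH1 (14.8 to 24.2 CPM) were tested and not called.

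Levels are given as CPM, the share of a library's counts that a gene takes, scaled to a fixed total and normalised between libraries. Because the kit makes about 1 read per transcript, counts were compared between genes without a length term, although the efficiency of each gene's 3′ end is unknown. In every group TIMP2 was the most abundant of the 9 transcripts and the 3 TIMPs were the 3 most abundant in mean CPM. The 3 MMPs were the 3 least abundant in every group. In Mock the mean CPM fell in the order TIMP2 (359 ± 51.0, SD, n = 3), TIMP3 (193 ± 36.4), TIMP1 (98.0 ± 3.02), ADAM19 (87.2 ± 14.6), ADAM17 (64.8 ± 5.91), ADAMTS1 (35.2 ± 10.3), MMP14 (16.6 ± 3.29), MMP2 (8.01 ± 3.30) and MMP1 (3.34 ± 1.70). The neighbours TIMP1 and ADAM19 overlapped in their libraries, and so did MMP2 (4.91 to 11.5 CPM) and MMP1 (1.69 to 5.09 CPM); the other neighbours did not. TIMP2 stood above 94.9% or more of the tested genes in each group, and MMP1 in upCIN85 above 3.37%. The position of MMP1 moved most between groups: it was the last of the 9 in Mock, upCIN85 and siNeg, and the seventh in siCIN85, above MMP14 and MMP2.

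**Figure D1:**
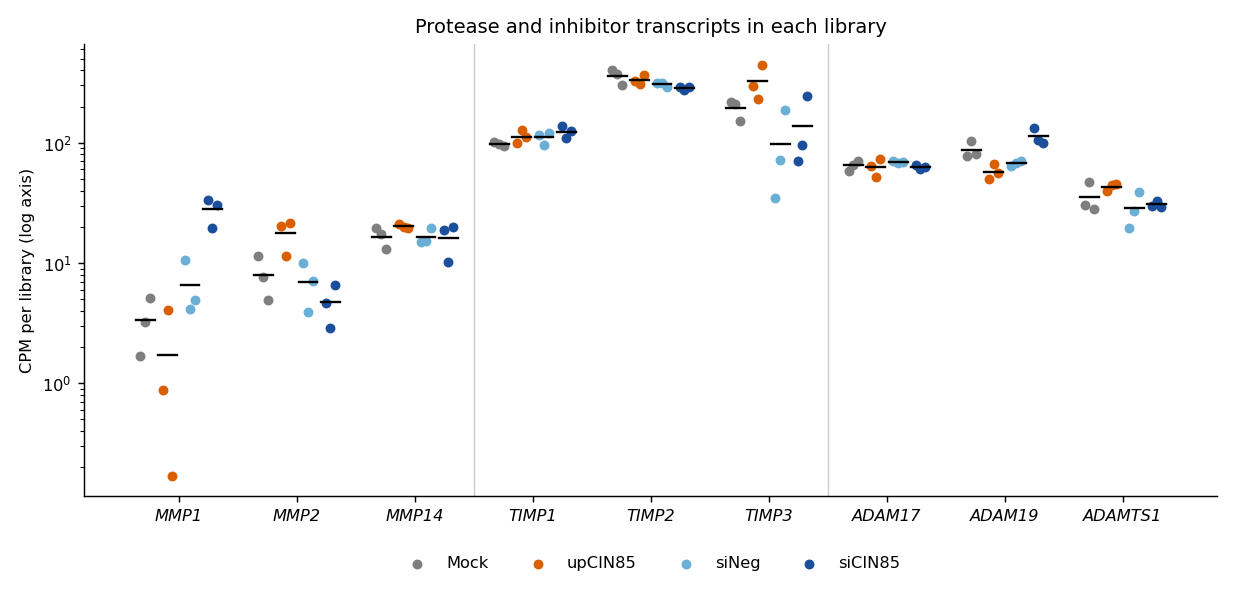
CPM of the 9 transcripts in each of the 12 libraries on a log axis; points are libraries, coloured by group, and black bars are group means of 3 libraries. The TIMPs lie above the MMPs in all groups, MMP1 lies at 19.7 to 33.7 CPM in siCIN85 and at 10.5 CPM or less elsewhere, and TIMP3 is spread widely in siNeg.

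The first comparison, upCIN85 versus Mock, addressed how these transcripts differ in cells given the CIN85 plasmid, and the second, siCIN85 versus siNeg, how they differ after CIN85 siRNA. None of the 9 genes passed an adjusted P of 0.05 in upCIN85 versus Mock by edgeR's quasi-likelihood test, against 1.23% of all genes tested; 2 of the 9 had an unadjusted P below 0.05, as had 14.5% of all genes, and DESeq2 on the 12 libraries called 1. In siCIN85 versus siNeg 2 of the 9 genes passed, MMP1 and ADAM19, against 1.04% of all genes, and both were higher in siCIN85. The test of the difference between both effects called 1 of the 9, ADAM19, against 0.973% of all genes. The 9 genes were chosen with earlier results of these data known, so these shares are descriptions only. The median log2FC of the 9 genes was 0.20 in upCIN85 versus Mock and 0.11 in siCIN85 versus siNeg, beside 0.0072 and -0.0052 over all genes tested. The libraries of the groups did not overlap for MMP14, TIMP3 and ADAM19 in upCIN85 versus Mock and for MMP1, ADAM17 and ADAM19 in siCIN85 versus siNeg, 3 of 9 genes each, where 20.7% and 20.2% of all genes did not overlap.

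**Figure D2:**
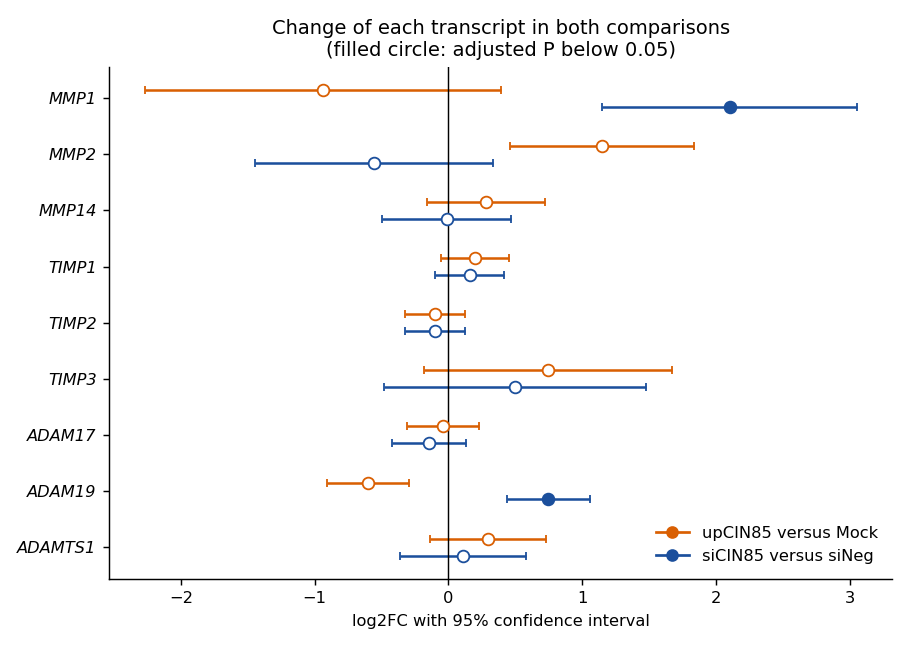
log2FC of each transcript with its 95% confidence interval in upCIN85 versus Mock (orange) and siCIN85 versus siNeg (blue), from the fit on 12 libraries; filled circles mark an adjusted P below 0.05. MMP1 (2.10) and ADAM19 (0.75) in siCIN85 versus siNeg are the filled circles, and the intervals of TIMP1, TIMP2 and ADAM17 are the narrowest around 0.

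MMP1, the interstitial collagenase, was 4.29-fold higher in siCIN85 than in siNeg. Its counts were 42, 17 and 19 in the siNeg libraries and 139, 68 and 116 in the siCIN85 libraries, or 10.5, 4.15 and 4.95 CPM against 33.7, 19.7 and 30.6 CPM. Every siCIN85 library thus lay above every siNeg library. The log2FC was 2.10 (SE 0.45, 95% confidence interval 1.15 to 3.05, edgeR adjusted P = 0.0321). This call was lost without siNeg replicate 1 (adjusted P = 0.0572), siNeg replicate 2 (0.173), siNeg replicate 3 (0.0652), siCIN85 replicate 1 (0.174) or siCIN85 replicate 3 (0.112), and with DESeq2 on 12 libraries (0.147), while the log2FC over the leave-one-out fits stayed between 1.84 and 2.62. In the plasmid pair MMP1 was near the limit of the depth, with 9, 19 and 29 counts in Mock and 5, 25 and 1 in upCIN85. The upCIN85 libraries spanned the Mock range, and the log2FC of -0.94 (SE 0.63, adjusted P = 0.528) had a 95% interval from -2.27 to 0.39. Without upCIN85 replicate 2, the library with 25 counts, it was -2.64 (adjusted P = 0.0731). The difference between both effects was -3.04 (SE 0.78, adjusted P = 0.0720); it passed the threshold once same-numbered knockdown libraries were treated as a block (adjusted P = 0.0242), without upCIN85 replicate 2 (0.00441) and without siNeg replicate 1 (0.0496).

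MMP2, the gelatinase, had the reverse order of group means, highest in upCIN85 and lowest in siCIN85, but no comparison passed the threshold. Its counts were 61, 45 and 28 in Mock and 116, 70 and 126 in upCIN85, or 11.5, 7.64 and 4.91 CPM against 20.3, 11.4 and 21.4 CPM. The groups overlapped at a single pair of libraries, Mock replicate 1 and upCIN85 replicate 2, which differed by less than 1 CPM. The log2FC was 1.15 (SE 0.33, 95% interval 0.46 to 1.83, adjusted P = 0.0856). It passed the threshold with the replicate block in the knockdown (adjusted P = 0.0237), with DESeq2 on the 6 libraries (0.0145) and without upCIN85 replicate 2 (0.0364). That block has terms for siNeg and siCIN85 libraries only, so it acts on this comparison through the estimate of spread that all groups share. In siNeg the counts were 40, 16 and 27 and in siCIN85 19, 10 and 25, with overlapping libraries and a log2FC of -0.55 (SE 0.42, adjusted P = 0.546). The difference between both effects was 1.70 (SE 0.53, adjusted P = 0.133). Among the mesenchymal markers, ALPL and COL1A2, given above, were also higher in upCIN85 than in Mock. COL1A2 did so with overlapping libraries, and ALPL passed the filter only through upCIN85. Of the 9 such markers 6 had a positive log2FC there and 3 a negative one. CDH2 (-0.47, SE 0.13, edgeR adjusted P = 0.0848) and SPARC (-0.35, SE 0.16, adjusted P = 0.330) were lower without overlap. In siCIN85 versus siNeg, ALPL also had a positive log2FC (1.705, SE 0.74, adjusted P = 0.282). The part of these markers in the MMP2 values was not tested.

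MMP14, the membrane-anchored enzyme, was the steadiest of the MMPs. The 3 Mock libraries held 103, 103 and 74 counts of it, with 121, 121 and 115 in upCIN85, 60, 62 and 75 in siNeg and 78, 35 and 75 in siCIN85. Every upCIN85 library (19.6 to 21.2 CPM) lay above every Mock library (13.0 to 19.4 CPM), by a margin smaller than the range of the Mock libraries. In upCIN85 its log2FC was 0.28 (SE 0.21) at an adjusted P of 0.581. In siCIN85 it was -0.012 (SE 0.23) at an adjusted P of 0.989, with a 95% interval of -0.49 to 0.47. Among the 20 other MMP genes listed, 15 were in the table and 3 passed the filter (MMP16, MMP19 and MMP9), and none of these was called in either comparison. MMP16, another membrane-anchored MMP, and MMP19 had the highest mean CPM of these, and MMP16 had a log2FC of 0.42 (SE 0.22) in upCIN85 and of -0.16 (SE 0.25) in siCIN85, at adjusted P of 0.410 and 0.798.

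The secreted MMP genes MMP3, MMP13 and MMP9, chosen after their values were seen, were at or near 0 counts in the controls and are shown as counts. MMP3, a stromelysin whose gene lies beside MMP1 on chromosome 11, had 0, 1 and 0 counts in siNeg and 30, 4 and 15 in siCIN85. It had 1, 1 and 2 counts in Mock and 0, 2 and 0 in upCIN85. Summed over 3 libraries and scaled to the totals, the siCIN85 to siNeg ratio of MMP3 was 52.9, with a 95% counting interval of 9.06 to 2131; the gene did not pass the filter and was not tested. MMP13, a collagenase of the same gene cluster, had 3, 0 and 0 counts in siNeg and 9, 1 and 6 in siCIN85 (ratio 5.76, counting interval 1.65 to 30.8), with overlapping libraries. MMP9, the other gelatinase, had 6, 4 and 3 counts in siNeg and 12, 8 and 9 in siCIN85, without overlap, but its log2FC of 1.21 (SE 0.43) had an adjusted P of 0.176. Mock and upCIN85 each held 1, 1 and 2 counts of MMP9. Its log2FC between the controls, siNeg versus Mock, was larger (2.09, SE 0.61, edgeR adjusted P = 0.15), also without overlap. The mean CPM of MMP9 was highest in siCIN85 (2.53, against 1.09 in siNeg). Every siCIN85 library was at 2.31 to 2.91 CPM of MMP9, and every other library at 1.499 CPM or less. MMP9 thus passed the filter only through siCIN85, the group where it was high, so its higher level there is no independent support. The intervals of MMP3 and MMP13 treat each count as a separate molecule and do not cover the spread between libraries. They also do not allow for the choice of these genes after their values were seen. MMP11, another MMP gene below the filter, went the other way, with 10 summed counts in siNeg and 3 in siCIN85.

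**Figure D3:**
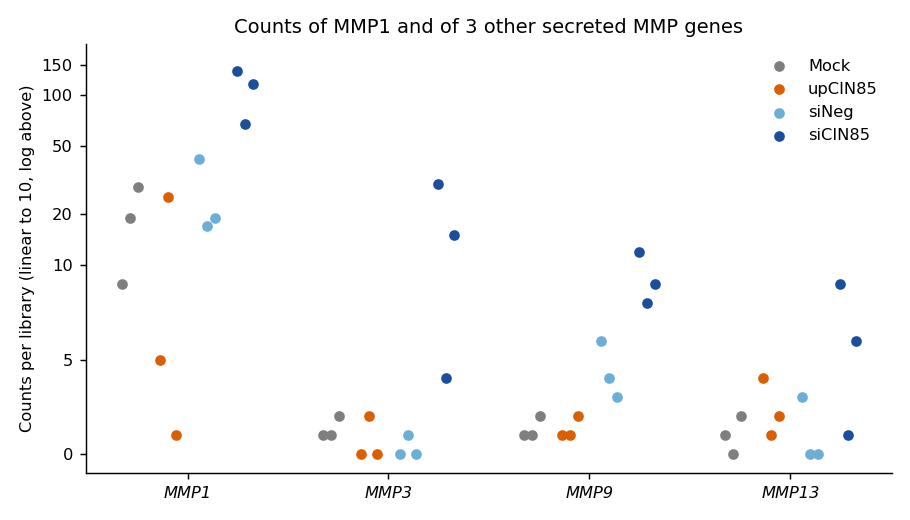
Raw counts of MMP1, MMP3, MMP9 and MMP13 in each library, on an axis that is linear to 10 and logarithmic above; points are libraries coloured by group. All 3 siCIN85 libraries lie above all 3 siNeg libraries for MMP1, MMP3 and MMP9, and the MMP3 counts of siCIN85 run from 4 to 30.

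The inhibitors TIMP1 and TIMP2 varied little. TIMP1, a soluble inhibitor of most secreted MMPs, had 101, 98.6 and 94.7 CPM in Mock and 100, 127 and 111 CPM in upCIN85, and 116, 96.0 and 120 CPM in siNeg against 137, 109 and 125 CPM in siCIN85. The libraries overlapped in both comparisons. Its log2FC was 0.20 (SE 0.12, adjusted P = 0.472) and 0.16 (SE 0.12, adjusted P = 0.553), and the 95% intervals ended at 0.45 and 0.42. TIMP2 had 402, 374 and 303 CPM in Mock, 329, 311 and 365 CPM in upCIN85, 316, 313 and 292 CPM in siNeg and 293, 273 and 292 CPM in siCIN85. Its log2FC was -0.10 in both comparisons (SE 0.11 each, adjusted P = 0.716 and 0.685), with 95% intervals of -0.32 to 0.12 and -0.33 to 0.12.

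TIMP3, the matrix-bound inhibitor, was the most variable inhibitor. It had 217, 212 and 151 CPM in Mock and 295, 230 and 447 CPM in upCIN85, so that every upCIN85 library lay above every Mock library. The log2FC of 0.75 (SE 0.44, 95% interval -0.18 to 1.67) did not pass the threshold (adjusted P = 0.465), but it did with the replicate block in the knockdown (adjusted P = 0.0288). That block has no term for Mock or upCIN85 libraries and acts here only through the shared estimate of spread. In siNeg the 3 libraries had 34.5, 71.6 and 186 CPM and in siCIN85 71.1, 95.4 and 245 CPM. Both groups were highest in replicate 3 and lowest in replicate 1, and each siCIN85 library lay above the siNeg library of the same number although the groups overlapped. The log2FC was 0.50 (SE 0.46, adjusted P = 0.644) without the block and 0.59 (adjusted P = 0.130) with it, and among all alternatives other than leaving out a library it passed only without a filter on low counts (0.0106). Without siCIN85 replicate 3 it was -0.23, and without siNeg replicate 3 it was 1.36 (adjusted P = 0.118). Among 9 other inhibitors listed, 8 were in the table and 7 were tested, and none was called in either comparison. The collagen chaperone SERPINH1 had a mean of 165 CPM over the 12 libraries. TFPI2, a serine protease inhibitor of the matrix, differed between both effects (-1.18, SE 0.26, adjusted P = 0.0381), a call that held in 2 of 12 leave-one-out fits and not after thinning.

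ADAM19 was the only one of the 9 genes with a difference between both effects past the threshold. Its counts were 410, 612 and 459 in Mock, 285, 407 and 328 in upCIN85, 259, 276 and 270 in siNeg and 551, 363 and 380 in siCIN85. This was 77.1, 104 and 80.5 CPM in Mock against 49.8, 66.5 and 55.8 CPM in upCIN85, and 64.7, 67.5 and 70.3 CPM in siNeg against 134, 105 and 100 CPM in siCIN85. All upCIN85 libraries lay below all Mock libraries, and all siCIN85 libraries lay above all siNeg libraries. In siCIN85 the transcript was 1.68-fold higher (log2FC 0.75, SE 0.15, 95% interval 0.43 to 1.06, edgeR adjusted P = 0.0253). This call was lost without siNeg replicate 1 (adjusted P = 0.108), siNeg replicate 2 (0.107), siCIN85 replicate 1 (0.155) or siCIN85 replicate 3 (0.0571). In upCIN85 the log2FC was -0.60 (SE 0.14, 95% interval -0.91 to -0.30) at an adjusted P of 0.0507. It passed with only the 6 libraries of the comparison (0.0463), DESeq2 on 12 libraries (0.0102) and without upCIN85 replicate 2 (0.0247). It also passed with the replicate block in the knockdown (0.0206), which has no term for Mock or upCIN85 libraries and acts through the shared spread. The difference of both effects was -1.35 (SE 0.21, 95% interval -1.78 to -0.91, adjusted P = 0.00440), and it stayed past the threshold in 12 of 12 leave-one-out fits and 7 of 7 other alternatives.

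Some reads of ADAM19 could belong to genes on the opposite strand, since the strand setting of the counting is not given in the sources used here. The exons of CYFIP2 touch those of ADAM19, and CYFIP2 had a log2FC of -0.40 in both comparisons (SE 0.29 each, adjusted P = 0.564 and 0.534). NIPAL4 lies within the ADAM19 gene without touching its exons, had 636 counts in all libraries together, and showed a log2FC of -1.18 (SE 0.30) in upCIN85 and of 0.70 (SE 0.29) in siCIN85, neither past the threshold (adjusted P = 0.0644 and 0.246), with a difference of both effects of -1.88 (SE 0.42, adjusted P = 0.0403). Whether the reads of both genes are mixed was not tested. For MMP1, the overlapping WTAPP1 had 5 counts in all libraries together, and SYN1 and SYN3, whose genes span TIMP1 and TIMP3, had 19 and 0.

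ADAM17, the main sheddase of tumour necrosis factor and of EGF receptor ligands, did not pass the threshold in any comparison. It had 58.7, 65.2 and 70.5 CPM in Mock, 64.2, 51.5 and 73.3 CPM in upCIN85, 70.7, 68.4 and 69.5 CPM in siNeg and 64.8, 60.7 and 62.9 CPM in siCIN85. The siCIN85 libraries all lay below the siNeg libraries, yet the log2FC was only -0.15 (SE 0.13, 95% interval -0.42 to 0.13, adjusted P = 0.624). In upCIN85 it was -0.042 (SE 0.13, adjusted P = 0.917). The exons of IAH1 on the opposite strand touch those of ADAM17, and IAH1 had log2FC values of -0.35 and -0.34 (SE 0.18 and 0.19) with adjusted P of 0.382 and 0.405. Of 19 other ADAM genes, 13 were in the table, 8 were tested and none was called in either comparison. ADAM10, the other main sheddase, and ADAM9 had the highest mean CPM of these (137 and 126), and the log2FC of ADAM10 was -0.27 (SE 0.12) against Mock and -0.29 (SE 0.12) against siNeg, at adjusted P of 0.298 and 0.257.

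ADAMTS1, which cuts the proteoglycans aggrecan and versican, had 30.5, 47.0 and 28.1 CPM in Mock and 39.5, 44.6 and 45.6 CPM in upCIN85. In siNeg it had 19.5, 27.1 and 38.8 CPM, and in siCIN85 30.1, 33.0 and 29.1 CPM, inside the siNeg range. The log2FC was 0.29 (SE 0.20, adjusted P = 0.545) and 0.11 (SE 0.22, adjusted P = 0.855). Of 24 other ADAMTS and ADAMTSL genes listed, 21 were in the table and 11 were tested, and none was called in either comparison. Their median log2FC was 0.31 in upCIN85 and -0.43 in siCIN85. ADAMTS12 (69.5 CPM) and ADAMTS15 (9.04 CPM) had the highest mean CPM of these.

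The balance of inhibitor and protease transcripts was read within each library, where depth cancels. Mock libraries held 22.1, 24.1 and 23.9 TIMP1, TIMP2 and TIMP3 counts for each count of MMP1, MMP2 and MMP14, with a range of 17.1 to 22.5 in upCIN85, 13.2 to 20.7 in siNeg and 8.75 to 14.6 in siCIN85. TIMP counts exceeded MMP counts in every library, and siCIN85 held the lowest ratios, overlapping siNeg at siNeg replicate 1. On the log2 scale the protease to inhibitor ratio was 0.27 higher in upCIN85 than in Mock and 0.60 higher in siCIN85 than in siNeg, where it was higher in 3 of 3 same-numbered pairs (0.59, 0.50 and 0.71). The first of these turned to -0.39 when the mean of the log2 counts replaced the sums, which gives the low counts of MMP1 an equal weight. In siCIN85 versus siNeg, MMP1 was the only protease of the sum with a higher mean CPM (6.53 to 28.0). MMP2 went from 6.98 to 4.70 CPM and MMP14 from 16.6 to 16.3 CPM. For single pairs, 8 exact two-sided permutation tests were made, in which 3 libraries against 3 cannot give a P below 0.1.

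**Figure D4:**
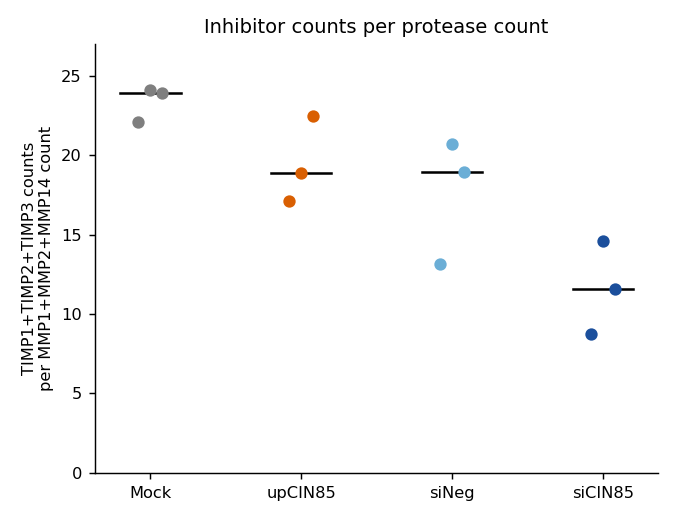
Summed counts of TIMP1, TIMP2 and TIMP3 per summed count of MMP1, MMP2 and MMP14 in each library; points are libraries and bars are group medians. All Mock libraries lie at 22.1 or above and all siCIN85 libraries at 14.6 or below; upCIN85 spans 17.1 to 22.5 and siNeg 13.2 to 20.7.

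The ratio of MMP2 to TIMP2, the pair of precursor and bridging inhibitor, was 2.41-fold higher in upCIN85 than in Mock. There were 35.0 to 61.7 TIMP2 counts per MMP2 count in Mock and 16.2 to 27.1 in upCIN85, so the libraries did not overlap (exact permutation P = 0.1, adjusted P = 0.2). In siCIN85 versus siNeg the log2 difference of this ratio was -0.45 with overlapping libraries (exact permutation P = 0.4). MMP14 to TIMP2 was 0.39 higher on the log2 scale in upCIN85, without overlap (exact permutation P = 0.1), and 0.027 higher in siCIN85 (exact permutation P = 0.9). MMP1 to TIMP1 was 4.08-fold higher in siCIN85, from 11.1 to 24.3 TIMP1 counts per MMP1 count in siNeg to 4.07 to 5.53 in siCIN85 (exact permutation P = 0.1, adjusted P = 0.2). In upCIN85 this ratio ranged from 31.0 to 653 TIMP1 counts per MMP1 count, and the largest value rests on a library with 1 MMP1 count. ADAM17 to TIMP3 was lower by similar amounts in upCIN85 (log2 difference -0.76, no overlap, exact permutation P = 0.1) and in siCIN85 (-0.77, overlap, exact permutation P = 0.4). Within the 3 same-numbered pairs of siNeg and siCIN85, a test added after seeing the data and unable to give a P below 0.25, MMP2 to TIMP2 and ADAM17 to TIMP3 were lower in 3 of 3 pairs and MMP1 to TIMP1 higher in 3 of 3 (exact paired permutation P = 0.25 each). MMP14 to TIMP2 was higher in 2 of 3 pairs (exact paired permutation P = 0.75).

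Genes that act on these proteases were counted from lists drawn from general knowledge, but chosen with earlier results of these data known. Their shares beside those of all genes are therefore descriptions only. Of 21 genes for activation and cofactors, 18 were tested; PLAU and PCSK7 fell in upCIN85 and PLAUR rose in siCIN85, that is 2 of 18 and 1 of 18 called, against 1.23% and 1.04% of all genes. PLAU, the urokinase that makes plasmin, an activator of MMP precursors, went from 36.2 ± 3.92 CPM in Mock to 22.4 ± 3.76 in upCIN85 (SD, n = 3; log2FC -0.70, SE 0.15, adjusted P = 0.0261), and the difference between both effects was -0.92 (adjusted P = 0.0397). PCSK7, a proprotein convertase, went from 31.5 ± 1.70 to 20.4 ± 1.93 CPM (log2FC -0.63, SE 0.14, adjusted P = 0.0340). PLAUR, the urokinase receptor, went from 34.7 ± 10.3 CPM in siNeg to 89.5 ± 39.2 in siCIN85 (log2FC 1.37, SE 0.29, adjusted P = 0.0306). CD44 and BSG, a docking receptor and an inducer of MMPs, had the highest mean CPM in this list (284 and 109) and were not called. Of 20 substrates shed by ADAM17 or ADAM10, 14 were tested; 0 were called in upCIN85 (5 had an unadjusted P below 0.05) and 1 in siCIN85, against the same shares of all genes. TNFRSF1B, a tumour necrosis factor receptor, went from 4.75 ± 1.61 CPM in siNeg to 13.6 ± 4.31 in siCIN85 (log2FC 1.52, SE 0.31, adjusted P = 0.0264). The PLAU call was lost without Mock replicate 1, Mock replicate 2 or upCIN85 replicate 3 (adjusted P up to 0.157), and the PCSK7 call in each leave-one-out fit but that without upCIN85 replicate 2 (up to 0.168). The PLAUR call was lost without replicate 1 or 2 of siNeg or replicate 1 or 3 of siCIN85 (up to 0.199), and the TNFRSF1B call in each such fit but that without siCIN85 replicate 2 (up to 0.155). The PLAU difference passed in 2 of 12 such fits. Thinning also ended the PLAU call, the PLAU difference and the PCSK7 call, the fit of 6 libraries ended the PLAUR and TNFRSF1B calls, and DESeq2 on 6 libraries ended the PLAUR call (adjusted P = 0.105). The median log2FC of the 18 activation and cofactor genes was -0.22 in upCIN85 and 0.052 in siCIN85, and that of the 14 substrates was 0.0082 and -0.072. AXL and CDH2 had the highest mean CPM of the substrates (398 and 186) and were not called.

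Of 16 transcription factor genes of the AP-1, ETS and RUNX families, which are known to act at MMP promoters, 15 were tested, with 1 called in upCIN85 and 2 in siCIN85, against 1.23% and 1.04% of all genes. This list was also chosen with earlier results of these data known, so its counts beside those of all genes are descriptions only. ETS1 was the one factor called in both comparisons, with 130 ± 7.14 CPM in Mock and 74.5 ± 13.9 in upCIN85 (log2FC -0.81, SE 0.12, adjusted P = 0.00286), and 97.2 ± 5.18 CPM in siNeg and 144 ± 8.06 in siCIN85 (log2FC 0.57, SE 0.12, adjusted P = 0.0319). ETV4, another ETS factor, rose from 10.8 ± 0.166 CPM in siNeg to 26.8 ± 4.93 in siCIN85 (log2FC 1.31, SE 0.25, adjusted P = 0.0251). The difference between both effects was -1.37 for ETS1 (adjusted P = 0.00130) and -1.75 for ETV4 (adjusted P = 0.0304). The ETS1 call in upCIN85 and its difference held in 6 of 6 and 12 of 12 leave-one-out fits. The calls of ETS1 and ETV4 in siCIN85 were both lost without replicate 1 or 2 of siNeg or replicate 1 or 3 of siCIN85 (adjusted P up to 0.169 and 0.128), and the ETV4 difference passed in 2 of 12 such fits and not after thinning. JUN and FOSL2 had the highest mean CPM of the list (173 and 152) and were not called. In siCIN85 13 of the 15 factors had a positive log2FC, with a median of 0.34, and 9 had an unadjusted P below 0.05. Over all genes 49.2% were positive, the median was -0.0052 and 15.7% had such a P. In siNeg versus Mock, which shares siNeg, 12 of the 15 had a negative log2FC and 3 a positive one, with a median of -0.11. There 5 had an unadjusted P below 0.05, against 12.4% of all genes. ETS1 was lower (-0.42, SE 0.12, edgeR adjusted P = 0.136) and JUNB higher (0.81, SE 0.14, adjusted P = 0.0154).

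The genes whose log2 CPM followed MMP1, MMP2 and ADAM19 most closely over the 12 libraries were sought among 8954 genes of at least 10 CPM; the libraries share the group structure, so these correlations are descriptions. For ADAM19 they were MYO5B (Pearson r = 0.939), ETS1 (0.936) and INA (0.934). For MMP1 they were CCDC32 (0.968), MAPKBP1 (0.964) and ARHGDIB (0.952), and for MMP2 they were GPNMB (0.965), DDB2 (0.965) and CPE (0.943). With SH3KBP1 itself, r was -0.772 for ADAM19, -0.770 for MMP1 and 0.521 for MMP2.

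Because ADAM19 and ETS1 followed each other, the RefSeq promoter of ADAM19 (GRCh38.p14, chr5:157575776-157576025, minus strand, the 250 bases before the start) is shown with GGAA, the core of ETS sites, and its reverse complement in capitals.
ADAM19 promoter: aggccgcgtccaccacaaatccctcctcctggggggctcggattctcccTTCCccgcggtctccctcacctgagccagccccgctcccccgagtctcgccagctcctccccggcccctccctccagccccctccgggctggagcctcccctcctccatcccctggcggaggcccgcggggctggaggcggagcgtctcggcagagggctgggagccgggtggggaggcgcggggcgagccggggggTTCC
The printed stretch held 2 such matches, and 95.5% of 35116 promoter windows of 300 bases (250 before the start and 50 after it) held at least 1, so their presence does not set this promoter apart. The longer ETS motif CCGGAA was found on neither strand of the ADAM19 window and in 17.3% of all windows, and the AP-1 motif TGANTCA in none of the 5 members with a RefSeq promoter entry and in 7.71% of all windows. The other members with an entry were MMP14, TIMP1, TIMP3 and ADAM17, of which MMP14 held CCGGAA 1 time and ADAM17 2 times. MMP1, MMP2, TIMP2 and ADAMTS1 had no entry.

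The control groups of both experiments were set side by side, with the reservation that siNeg shares its libraries with the knockdown comparison and Mock with the plasmid comparison, and that transfection with siRNA, selection with geneticin and depth cannot be told apart here. None of the 9 genes was called in siNeg versus Mock, where 0.526% of all genes tested were called and 3 of the 9 had an unadjusted P below 0.05 by edgeR, as had 12.4% of all genes; DESeq2 called none. Those 3 were TIMP3 (log2FC -0.99, SE 0.46, adjusted P = 0.390), ADAM19 (-0.37, SE 0.15, adjusted P = 0.295) and TIMP2 (-0.23, SE 0.11, adjusted P = 0.392). With the replicate block in the knockdown TIMP3 passed the threshold (log2FC -1.30, adjusted P = 0.00235), and without siNeg replicate 3 it also did (-1.86, adjusted P = 0.0430).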

How the data were processed

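RNA-seq libraries of HOS cells were made with a 3′ end kit with unique molecular identifiers and sequenced as 75-bp single-end reads. According to the submitters' processing notes, cutadapt 4.3, STAR 2.7.3a, Picard 2.25.6 and featureCounts of Subread 2.0 were used with GRCh38; the annotation release, the strand setting and any collapsing of identifiers are not given in the sources used here. The authors deposited unnormalised counts for 25141 Ensembl genes; symbols came from GENCODE release 29, in which 95 identifiers had no match. Counts that identifiers do not collapse can repeat molecules, and intervals from counts would then be too narrow even for counting error.

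Genes were tested in R 4.3.3 with edgeR 4.0.16 (filterByExpr, minimum count 10, minimum total 15; TMM factors; quasi-likelihood fit of 4 group means on all 12 libraries, 8 residual degrees of freedom). Two-sided P values received a Benjamini-Hochberg adjustment over 12542 genes, and 0.05 was the threshold. Standard errors were approximated from the F statistic, and CPM values are TMM-normalised. Summed and pairwise protease to inhibitor ratios used raw counts. The alternatives were 6 libraries, RLE factors, 2 other filters, replicate blocks, leaving out each library, DESeq2 1.42.0 and thinning to 3540641 counts. The scripts were tested on simulated counts. No library was a duplicate of another in its group. Deviations from the group means correlated between siNeg and siCIN85 libraries of the same number (r = 0.354, 0.269 and 0.446) and not between those of different numbers (-0.0589 or lower). The deviations of a gene cancel out within a group, so higher same-number values go with lower different-number values by construction. The latter add no separate evidence of a pairing. The labels do not state a pairing, and the main fit and the leave-one-out fits had no replicate block. The paired tests of ratios were added after seeing the data.

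The 9 genes were given by name. From each list, markers included, every gene past the threshold in a comparison of treatment or in the difference was named, with the 2 genes of highest mean CPM, and for MMP1, MMP2 and ADAM19 the 3 genes of most similar pattern. A gene that this rule would name is not reported here. Members and lists were chosen with earlier results of these data known.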

Additional observations from a re-analysis of the deposited data

Results flagged for a closer look

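ADAM19 responded differently in the plasmid and the siRNA experiment by a direct test: its log2FC in upCIN85 versus Mock minus that in siCIN85 versus siNeg was -1.35 (SE 0.21, edgeR adjusted P = 0.00440), with all 3 upCIN85 libraries below Mock and all 3 siCIN85 libraries above siNeg. The gene NIPAL4, within the ADAM19 locus on the opposite strand, had a difference of the same sign (-1.88, SE 0.42, adjusted P = 0.0403). SH3KBP1 counts did not differ past the threshold between upCIN85 and Mock (adjusted P = 0.887). The part of either in the ADAM19 result was not tested. Groups of 3 libraries were not screened for single outlying libraries.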

How the results depend on the processing

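Of the 9 genes, the number called in upCIN85 versus Mock was 0, but 1 with the 6 libraries alone and with DESeq2 on 12 libraries, 2 with DESeq2 on 6 libraries, 3 without a filter on low counts and 3 with a replicate block in both experiments or in the knockdown only (ADAM19, MMP2 and TIMP3). In siCIN85 versus siNeg it was 2, but 3 without a filter (TIMP3 added), 1 with at least 10 counts in every library, which leaves MMP1 untested, and 1 with DESeq2 on 12 libraries. In the difference it was 1, but 3 without a filter, 3 with both experiments blocked and 2 with the knockdown alone blocked; in siNeg versus Mock it was 0, but 1 without a filter and with either block. The replicate blocks changed no call of the 9 genes beyond these. Over all genes, the calls in upCIN85 versus Mock moved from 154 to 1035 with both blocked and 545 with the knockdown alone. In siCIN85 versus siNeg they moved from 131 to 968 and 429. The difference moved from 122 to 918 and 368, and siNeg versus Mock from 66 to 588 and 216. Without a filter they were 637, 617, 554 and 376 of 25141 genes in that order. In upCIN85 versus Mock, 6 libraries alone gave 281 calls, and DESeq2 on 12 and 6 libraries 311 and 371. Same-numbered Mock and upCIN85 libraries correlated at 0.327, 0.228 and 0.0989, and those of different numbers at 0.0303 or lower. These values also come from deviations from group means, so the lower values for different numbers follow in part by construction. Whether these libraries are paired was not tested. Leaving out single libraries gave 0 to 2, 0 to 2, 1 to 2 and 0 to 1 calls in the 4 comparisons in the order above; the cause of these changes was not tested.

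Some signs turned among effects that did not pass the threshold. Thinning gave 0.053 for ADAM17 in upCIN85 and -0.013 for TIMP1 in the difference, and the stricter filter 0.0083 for MMP14 in siNeg versus Mock. Leave-one-out ranges that crossed 0 were, in upCIN85 versus Mock, -0.17 to 0.084 for ADAM17 and -0.011 to 0.15 for SH3KBP1. In siCIN85 versus siNeg they were -0.18 to 0.21 for MMP14, -0.23 to 1.36 for TIMP3 and -0.11 to 0.39 for ADAMTS1. In the difference they were -0.052 to 0.15 for TIMP1, -0.11 to 0.089 for TIMP2, -0.61 to 0.99 for TIMP3, -0.022 to 0.23 for ADAM17 and -0.086 to 0.45 for ADAMTS1. In siNeg versus Mock they were -0.55 to 0.15 for MMP2 and -0.16 to 0.12 for MMP14. The summed protease to inhibitor ratio in upCIN85 moved to -0.39 with the mean of log2 counts. A fit of 6 libraries was not made for the difference. Depth limits MMP1 in Mock and upCIN85 and the MMP genes below the filter.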
